A study of Ictidomys tridecemlineatus with 15 samples.

Results

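The unannotated transcription units of 13-lined ground squirrel liver are the units of the count table that carry a single identifier and no gene name. The rule that picks them reads the identifier and no measured value. Of the 6324 units in the table, 4705 carried a single name, and 309 of these were unannotated, in 3 kinds. The first kind had an identifier made of G and digits (G units, 161 units or 3.42% of single-name units), the second a locus identifier beginning with LOC (LOC units, 112 or 2.38%), and the third an Ensembl identifier beginning with ENSSTOG (ENSSTOG units, 36 or 0.765%). The remaining 4396 single-name units carried a gene name and served for comparison. The other 1619 units had been merged from overlapping genes and were not members.

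Global run-on sequencing (GRO-seq) lets the polymerases that sit on DNA in isolated nuclei run on and sequences the RNA labelled in that time. Its reads thus count polymerases that were engaged on DNA and able to elongate. For torpor, the paper proposes that these polymerases move on very slowly, without initiation or termination. The libraries came from frozen livers of laboratory-housed female squirrels of a breeding colony that carried implanted temperature transmitters, with 1 animal per library. The groups were summer active animals sampled before hibernation (SA, n = 3 libraries), hibernators in the warm period between torpor bouts (IBA, n = 3), hibernators entering torpor (Ent, n = 3), and hibernators in early torpor (ET, n = 3) and late torpor (LT, n = 2 of the 3 in the labels, since the authors removed LT replicate 2). The labels describe no mutation or drug in any group. ET and LT, the states of low body temperature, are called cold below, and SA and IBA, the states of high body temperature, warm.

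Genomes hold many transcribed stretches that no gene name covers. They include long noncoding RNAs, transcripts that start from a shared promoter and run away from a neighbouring gene, antisense transcripts, and protein-coding genes whose relation to named genes of other species was not settled when the genome was annotated. A LOC symbol marks a locus that NCBI's annotation predicts without an established name, and an ENSSTOG identifier is the Ensembl gene number for this species.

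Total counts per library ran from 3713883 to 8884763. Of the marker genes looked up to check the tissue, 10 of 10 hepatocyte genes had a unit, against 1 of 6 macrophage, 2 of 5 endothelial, 1 of 4 cholangiocyte, 0 of 5 stellate cell and 0 of 4 leukocyte and blood genes. The season of collection differed between states. The 3 ET animals came from a season that held no other group, so that ET and its season cannot be told apart. The 2 LT animals came from the season before, together with 1 SA and 2 Ent animals. The 3 IBA animals came from the season after, together with 2 SA animals and 1 Ent animal but no cold ones. Cold against warm and LT to IBA thus compared libraries that also differed largely in season, and state and season cannot be fully told apart there.

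Unannotated units were shorter than named ones. The median length was 11852 nt for G units (826 to 414247 nt), 20600 nt for LOC units (3826 to 156979 nt) and 13970 nt for ENSSTOG units (973 to 180942 nt), against 38004 nt for named units. Units under 10 kb made up 41.0% of G units (66 of 161), 18.8% of LOC units (21 of 112) and 27.8% of ENSSTOG units (10 of 36), compared with 6.39% of named units (281 of 4396). The longest G unit, G40832, overlapped on the opposite strand a merged unit that holds CYP3A4, a drug-metabolizing cytochrome P450, and the shortest, G20932, lay 1427 nt from the start of Osbp, an oxysterol-binding protein, pointing away from it.

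Read density is given here as TMM-normalized CPM (counts scaled to a common library size) per kb of unit, averaged over the 14 libraries. Its median was 3.17 for G units, 2.41 for LOC units and 2.02 for ENSSTOG units, next to 2.14 for named units. Short units were denser in every kind, and the lowest mean count of any unit in the table was 77.4, so that a short unit could appear in the table only at a high density. The order of the kinds differed between ranges of length. Under 10 kb the median density was 5.36 in G, 3.78 in LOC, 7.01 in ENSSTOG and 4.65 in named units, and from 10 to 30 kb it was 2.65, 3.27, 1.97 and 2.71. Among units of 30 kb or more it was 0.801 in G units, 1.22 in LOC units and 0.676 in ENSSTOG units, lower than the 1.72 of named units.

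**Figure D1:**
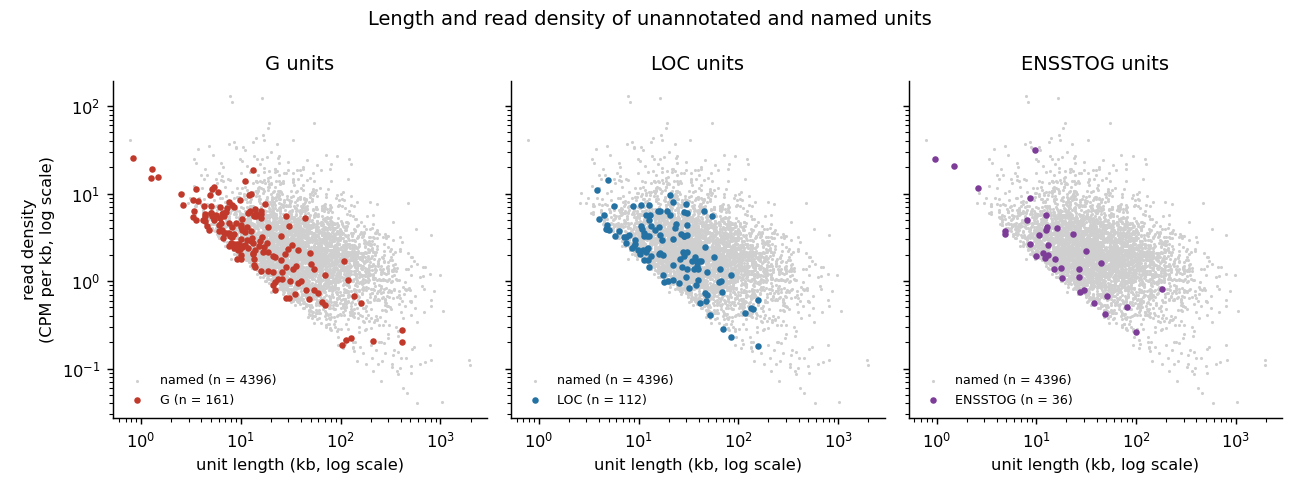
Length of each unit in kb (x axis, log scale) against its mean read density in CPM per kb (y axis, log scale), with 1 panel per kind of unannotated unit (coloured points) over the 4396 named units (grey points). The unannotated units lie toward the short end, with medians of 11852, 20600 and 13970 nt against 38004 nt for named units.

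The densest members were ENSSTOG00000029786 (31.6 CPM per kb), which lay on chromosome 14 at a distance of 77104 nt from the merged unit that holds albumin, G20932 (25.6), ENSSTOG00000030624 (24.9), ENSSTOG00000031122 (20.6), G37685 (19.1) and G16888 (18.7). Among LOC units, LOC101976419 (14.3), LOC106145342 (11.1) and LOC101959979 (9.69) were the densest. The named units reached 129 CPM per kb.

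Together the G units took a smaller part of the reads in the cold. They held 0.815% to 0.966% of a library's counts in SA, 0.948% to 1.05% in IBA and 0.854% to 0.918% in Ent, but 0.493% to 0.542% in ET and 0.461% to 0.497% in LT, so that the 5 cold libraries lay below the 9 others. LOC units held 0.693% to 0.830% in the 9 libraries of SA, IBA and Ent and 0.498% to 0.596% in the 5 cold ones, again without overlap. ENSSTOG units held 0.141% to 0.212% in the 6 warm and 0.144% to 0.158% in the 5 cold libraries, which overlapped. These are sums over the members, given without a test.

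**Figure D2:**
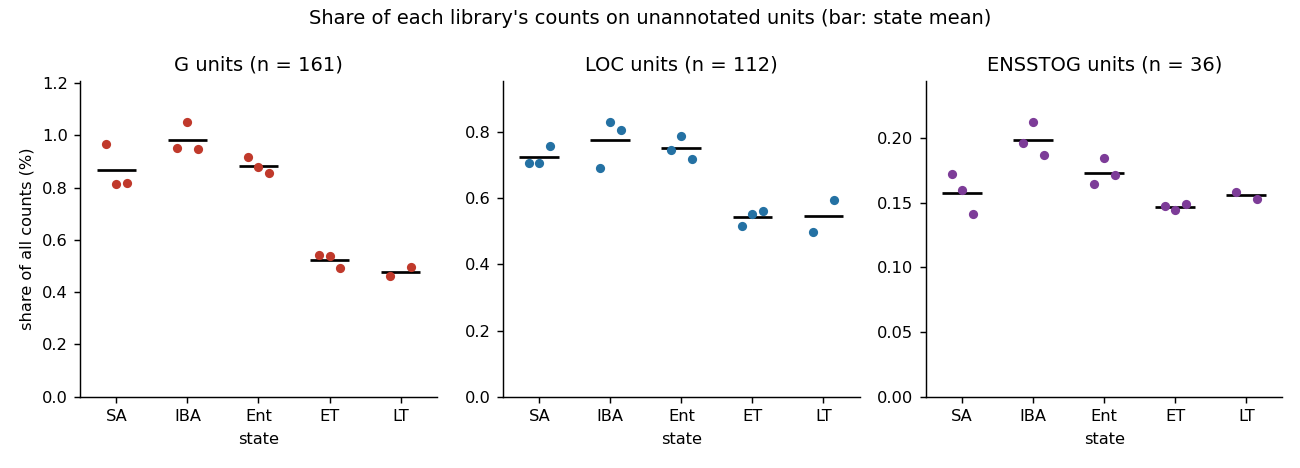
Share of each library's counts that fell on G, LOC and ENSSTOG units (y axis, %, from 0) in the 5 states (x axis). Each point is a library and each bar the mean of a state. G units drop from 0.815% or more in SA, IBA and Ent to 0.542% or less in ET and LT, whereas the ENSSTOG points overlap.

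The median density by state showed the same order. For G units it was 3.61 in SA, 3.74 in IBA and 3.53 in Ent, then 1.58 in ET and 1.22 in LT. For LOC units it was 2.72, 2.63 and 2.43 in the first 3 states and 1.62 and 1.51 in the cold, while for ENSSTOG units it was 1.69, 1.84, 2.11, 2.12 and 2.05, with no drop. The medians of named units stayed between 2.00 and 2.12 CPM per kb.

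A larger share of unannotated units than of named ones differed among the states. Over the 5 states together, 64 of 161 G units (39.8%), 43 of 112 LOC units (38.4%) and 16 of 36 ENSSTOG units (44.4%) had an adjusted p of 0.001 or less (edgeR, quasi-likelihood F-test, Benjamini-Hochberg adjustment over all 6324 units). Of named units 1120 of 4396 passed (25.5%), and so did 25.5% of all units tested. Among those that passed, G units were highest on average in IBA in 31 of 64 (48.4%), ENSSTOG units in 8 of 16 and named units in 245 of 1120 (21.9%), while LOC units were most often highest in SA (21 of 43). The lowest state was ET or LT in 51 of 64 G units (79.7%), 35 of 43 LOC units (81.4%) and 9 of 16 ENSSTOG units (56.2%), compared with 498 of 1120 named units (44.5%). With the season of collection in the model and the ET libraries left out, 12 G, 5 LOC and 3 ENSSTOG units passed. Without LT replicate 1 the numbers were 41 G and 28 LOC units, and without IBA replicate 1 10 ENSSTOG units passed.

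Cold against warm, G and LOC units that changed mostly fell. Here and below, a rise or fall is relative to the other reads of a library. The paper states that scaling by library size hides differences in total transcription between states, so a rise in the cold need not mean more transcription. Of G units 66 fell (41.0%) and 15 rose (9.32%), of LOC units 45 fell (40.2%) and 9 rose (8.04%), and of ENSSTOG units 11 fell (30.6%) and 7 rose (19.4%), by the same edgeR test and threshold. Named units divided more evenly, with 759 lower (17.3%) and 828 higher (18.8%), and of all units tested 17.6% were lower and 18.6% higher. The median log2 fold change was -1.19 for G units, -0.65 for LOC units and -0.53 for ENSSTOG units, against -0.04 for named units and for all units. Falls of 4-fold or more that passed the test were found in 39 G units (24.2%), 19 LOC units (17.0%) and 5 ENSSTOG units (13.9%), as compared with 140 named units (3.18%). Without LT replicate 1, and likewise without LT replicate 3, 43 G units fell.

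Scaling to the uniquely mapped reads in place of TMM moved the median of all units from -0.04 to 0.18. The medians were then -0.96 for G, -0.43 for LOC and -0.30 for ENSSTOG units against 0.19 for named units, each still below the median of all units. Falls made up 74.7% of the changed G units under that scaling (81.5% under TMM), 73.5% of the changed LOC units (83.3%), 53.3% of the changed ENSSTOG units (61.1%) and 30.2% of the changed named units (47.8%).

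**Figure D3:**
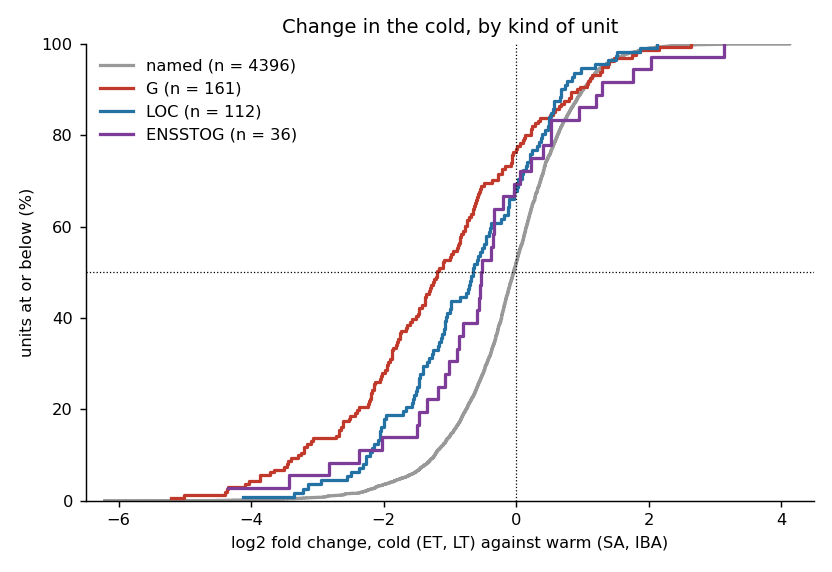
Cumulative distribution of the log2 fold change between cold (ET and LT) and warm (SA and IBA) libraries for each kind of unit: x axis, log2 fold change, with values below 0 lower in the cold; y axis, percent of units at or below that value. The G curve crosses 50% at -1.19, LOC at -0.65, ENSSTOG at -0.53 and the named units at -0.04.

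The split was also counted library by library, in the same libraries as the test and so not as separate evidence. All 5 cold libraries lay below all 6 warm ones in 55 G units (34.2%), 39 LOC units (34.8%), 8 ENSSTOG units (22.2%) and 849 named units (19.3%), with 19.5% over all units. All 5 lay above in 16 G units (9.94%), 11 LOC units (9.82%), 7 ENSSTOG units (19.4%) and 922 named units (21.0%), with 21.1% over all units. The season of the LT libraries held 1 SA and 0 IBA libraries, too few for a test of cold against warm within it. The summed density of the 10 hepatocyte marker genes, which are liver genes of high expression, moved with this contrast. It was 453 to 623 CPM per kb in the warm and 181 to 294 in the cold libraries. Single markers differed, since Ttr (log2 fold change -2.25) and Fgb (-2.0) fell, while Apob (-0.23) did not pass the threshold. The macrophage marker with a unit, Cd68, lay in a merged unit with Eif4a1, Senp3 and Mpdu1, which many cell types express, and that unit ran from 17.9 to 29.0 in the warm and 11.3 to 25 in the cold. The endothelial units, Kdr and Pecam1, ran from 2.97 to 4.57 and 1.66 to 3.15, and the cholangiocyte unit, Sox9, from 2.88 to 7.16 and 1.24 to 3.17. The part of these differences in the result was not tested, and fewer cells of a type and less transcription per cell cannot be told apart in whole tissue.

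Since unannotated units were shorter and had fewer counts per unit (median of the mean counts 205 in G, 264 in LOC and 173 in ENSSTOG units against 476 in named units), they were also set beside named units of like size. Among units under 30 kb with a mean count below 400, the median log2 fold change was -1.28 for 111 G units, -0.73 for 54 LOC units, -0.45 for 22 ENSSTOG units and 0.05 for 1252 named units. Of these, 42.3% of the G, 40.7% of the LOC, 22.7% of the ENSSTOG and 18.4% of the named units fell. The smallest named units leaned down too. Under a mean count of 200 the named median was -0.24, with 25.1% lower and 14.2% higher. The medians of G, LOC and ENSSTOG units there were -1.3, -1.04 and -0.7. Under 10 kb the named median was also -0.24, with 23.8% lower and 14.9% higher, against -0.89, -0.98 and -0.44. Named units of 200 to 400 counts and of 10 to 30 kb had medians of 0.01 and 0.14. The spread between libraries of a state was also wider in unannotated units: the median within-state standard deviation of log2 CPM was 0.47 in G, 0.33 in LOC and 0.32 in ENSSTOG units and 0.24 in named units. Among units with a mean count of 400 or more it was 0.44, 0.34, 0.31 and 0.22, so the wider spread was not limited to units of few reads.

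G8002, on the plus strand of chromosome 12 of the HiC_Itri_2 genome (37218629 to 37227566), had the largest fall of any member. It had 79.1, 47.9 and 62.3 CPM in SA and 102, 110 and 82.9 CPM in IBA. It had 45.8, 29.8 and 13.6 CPM in Ent, 3.24, 1.57 and 2.87 in ET, and 1.66 and 1.77 in LT. The warm, Ent and cold libraries formed separate ranges, with Ent between. A lack of overlap between cold and warm libraries was part of the rule that picked the members named for this contrast. The log2 fold change between cold and warm was -5.21 (SE 0.35, adjusted p = 3e-07, edgeR). The unit lay 22908 nt downstream of Zfp36l2, an RNA-binding protein that promotes mRNA decay, on the same strand, and Zfp36l2 changed by -2.82 (SE 0.21) in the same contrast. The cold values of G8002 rest on few reads, so the size of its fall is imprecise. Among all G units, 10 had fewer than 10 counts in some library, with a lowest count of 2.

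G26595, on the minus strand of chromosome 4 (183104473 to 183132406), had 113, 111 and 141 CPM in SA and 171, 113 and 59.7 CPM in IBA. Its values were 30.4, 24.8 and 15.6 CPM in Ent, 7.07, 4.71 and 3.83 in ET, and 5.74 and 6.04 in LT, again in 3 separate ranges. It fell by 4.4 on the log2 scale (SE 0.31, adjusted p = 3.6e-07, edgeR). The unit overlapped the opposite strand of Mbnl2, a splicing regulator, whose log2 fold change was -1.26 (SE 0.19). The GRO-seq reads were strand-specific, but whether they were counted by strand is not given in the sources used here, so reads of the overlap cannot be assigned to either unit with certainty. G25220, on the minus strand of chromosome 4 (68111403 to 68132553), fell from between 24.6 and 48.0 CPM in the warm to between 0.589 and 1.62 CPM in the cold (log2 fold change -5.02, SE 0.51, adjusted p = 3.8e-06, edgeR). In Ent it was split, with 1 library at 34.1 CPM and the others at 7.71 and 8.15. Slc38a4, an amino acid transporter, was its nearest named unit at 103600 nt. The cold values of G25220 likewise rest on few reads.

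The G units with the largest rises were smaller in their change. G6503, on the minus strand of chromosome 11 (50254198 to 50269712), had 15.4, 6.88 and 9.98 CPM in SA, 17.6, 25.7 and 21.9 in IBA, and 49.9, 70.1 and 71.2 in Ent. In the cold it had 69.5, 59.7 and 71.2 CPM in ET and 69.1 and 69.8 in LT. The Ent range overlapped the cold one, and the cold and warm ranges were apart (log2 fold change 2.15, SE 0.18, adjusted p = 1e-06, edgeR). G7848 (log2 fold change 2.64, SE 0.42) and G9236 (1.87, SE 0.29) also rose. G9236 lay 1734 nt from a unit listed as FAM120A, on the other strand and pointing away from it, and that unit had a log2 fold change of -0.21 (SE 0.11, adjusted p = 0.11, edgeR).

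Among LOC units, LOC106145069 fell most. The unit lay on the minus strand of chromosome 7 (116194491 to 116279446), 1364 nt from Bcl6, a transcriptional repressor, with the starts of both facing each other. It had 85.8, 187 and 328 CPM in SA, 138, 148 and 287 in IBA, and 33.7, 59.4 and 75.7 in Ent. In ET it had 9.57, 6.48 and 12.9 CPM and in LT 9.83 and 16.3. The 3 ranges were again apart, although the warm libraries spread widely (log2 fold change -4.12, SE 0.42, adjusted p = 3.7e-06, edgeR). Bcl6 itself changed by -2.10 (SE 0.33). LOC101963557, a protein-coding locus in RefSeq whose nearest named unit held SULT2A1, a sulfotransferase of steroids and bile acids, fell by 3.35 (SE 0.37), and that neighbour changed by -2.59 (SE 0.23). LOC101970734 fell by 3.22 (SE 0.39), whereas its nearest named unit, Hnrnpd, an RNA-binding protein, rose by 1.35 (SE 0.10) at a distance of 97823 nt.

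LOC units that rose included LOC110597766 (log2 fold change 2.13, SE 0.26), LOC101960968 (1.52, SE 0.21) and LOC110598472 (1.5, SE 0.16). LOC110598472, a long noncoding RNA locus in RefSeq on chromosome 6 (43105065 to 43121215, plus strand), had 27.2 to 49.4 CPM in the 6 warm libraries, 50.7 to 74.4 in Ent and 97.6 to 133 in the 5 cold ones, in separate ranges. It lay 1191 nt from Otud6b, a deubiquitinase, with starts facing, and Otud6b rose as well (1.33, SE 0.18). LOC101960968 lay 10464 nt from Nsf, a membrane fusion ATPase, whose log2 fold change was -0.01 (SE 0.11).

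ENSSTOG00000032655, on the minus strand of chromosome 12 (59048417 to 59099883), fell most of its kind. It had 63.4, 35.5 and 81.0 CPM in SA, 77.9, 80.3 and 58.3 in IBA, and 28.6, 29.9 and 16.6 in Ent. In ET it had 5.15, 0.982 and 3.51 CPM and in LT 2.42 and 3.83, so that the ranges were separate (log2 fold change -4.35, SE 0.37, adjusted p = 9.8e-07, edgeR). It stood 398028 nt from the nearest named unit. Its cold values rest on few reads as well, and the lowest count of any ENSSTOG unit in a library was 5. ENSSTOG00000031122, of 1509 nt, fell by 3.43 (SE 0.23), and ENSSTOG00000034836 fell by 2.83 (SE 0.22).

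The largest rise of any member in the cold was that of ENSSTOG00000033800, on the minus strand of chromosome 16 (49770098 to 49786364). It had 15.2, 7.70 and 9.15 CPM in SA, 16.5, 27.2 and 16.4 in IBA, and 54.5, 68.8 and 68.6 in Ent. In ET it had 115, 128 and 105 CPM and in LT 118 and 169, and warm, Ent and cold libraries did not overlap (log2 fold change 3.14, SE 0.20, adjusted p = 2.1e-07, edgeR). It overlapped Kifc3, a kinesin gene on the other strand, whose own log2 fold change was 0.02 (SE 0.25, adjusted p = 0.95, edgeR). ENSSTOG00000030929 rose by 2.03 (SE 0.14), with 13.2 to 26.7 CPM in SA, IBA and Ent and 59.2 to 74.5 CPM in the cold. ENSSTOG00000032173 rose by 1.76 (SE 0.27), with 34.8 to 38.6 CPM in ET but 9.22 and 23.9 in LT.

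**Figure D4:**
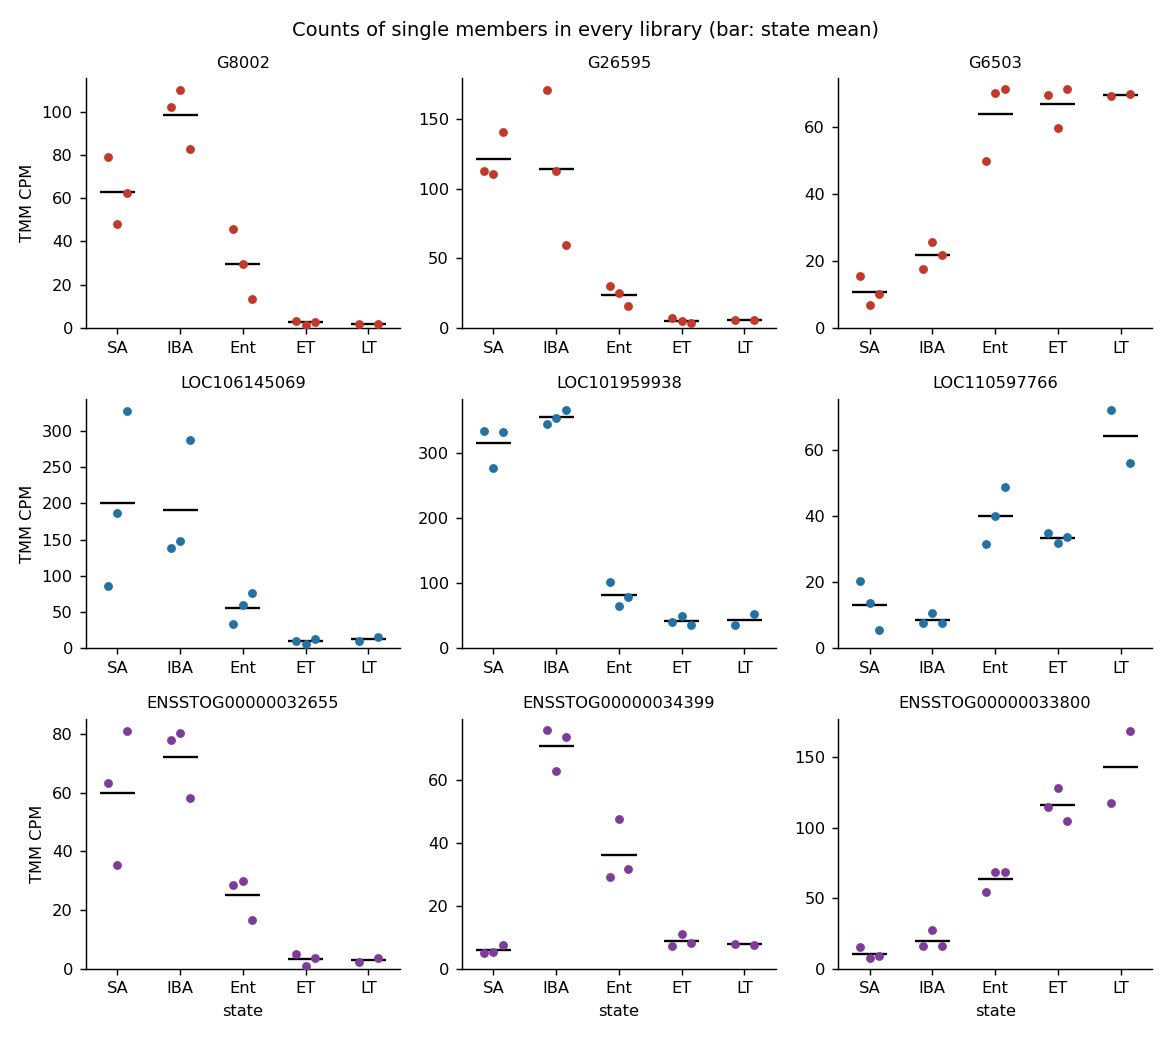
TMM-normalized CPM (y axis, from 0) of 9 single members in every library, by state (x axis). Points are libraries and bars the state means. G8002, G26595, LOC106145069, LOC101959938 and ENSSTOG00000032655 are low in both cold states, G6503, LOC110597766 and ENSSTOG00000033800 are low in SA and IBA, and ENSSTOG00000034399 is high in IBA and Ent, at 29.3 CPM or more.

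In the steps from SA through to LT, most calls were in the passage from Ent to ET, among unannotated units and over all units alike. In that step 25 members (8.09%) and 140 of all 6324 units (2.21%) passed. The other steps held 0 to 2 calls over all units. From SA to IBA 1 member passed, ENSSTOG00000034399, against 0.0158% of all units. At an unadjusted p under 0.05 there were 111 members (35.9%) and 22.0% of all units. This unit had 5.06, 5.50 and 7.60 CPM in SA and 75.9, 62.9 and 73.9 in IBA, was at 29.3 to 47.8 in Ent, and was back at 7.36 to 11 in ET and at 8.01 and 7.51 in LT. The SA and torpor libraries thus lay together below IBA and Ent (IBA over SA, log2 fold change 3.51, SE 0.25, adjusted p = 3.2e-05, edgeR). Its nearest named unit held Snx5, a sorting nexin, 70120 nt away, with a log2 fold change of 0.30 (SE 0.13) between cold and warm. The median change of all G units from SA to IBA was 0.21 and that of named units -0.01.

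From IBA to Ent 1 member passed, LOC101959938, against 0.0316% of all units. At an unadjusted p under 0.05 there were 114 members (36.9%) and 32.5% of all units. This protein-coding locus on the minus strand of chromosome 11 (10210098 to 10238682) had 344, 353 and 366 CPM in IBA and 102, 65.3 and 78.7 in Ent, without overlap (log2 fold change -2.11, SE 0.20, adjusted p = 0.0003, edgeR). It lay 46235 nt downstream of a merged unit that holds Hao2, a peroxisomal hydroxyacid oxidase, which changed by -2.36 (SE 0.22) between cold and warm, next to -2.95 (SE 0.16) for LOC101959938. The call was lost with the replicate number as a block (adjusted p = 0.0017, edgeR), with the season in the model (0.011) and without IBA replicate 1 (0.0034), IBA replicate 2 (0.0038), IBA replicate 3 (0.0024), Ent replicate 2 (0.0026) or Ent replicate 3 (0.0053), at log2 fold changes of -1.97 to -2.17.

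From Ent to ET 18 G, 2 LOC and 2 ENSSTOG units fell and 2 G, 0 LOC and 1 ENSSTOG unit rose, whereas 33 named units fell and 50 rose. Over all units 1.20% fell and 1.01% rose, against 11.2% and 1.24% of G units. The median log2 fold change was -0.90 for G, -0.47 for LOC and -0.50 for ENSSTOG units and 0.00 for named units. These counts leaned on single libraries, since 0 G units fell without Ent replicate 1 or without ET replicate 2 and 3 without Ent replicate 2, ET replicate 1 or ET replicate 3, and 8 to 10 without 1 of the IBA libraries. The 2 G units that rose came to 0 without any 1 of the IBA, Ent or ET libraries, and the LOC units that fell to 0 without Ent replicate 1 or any 1 of the ET libraries. G9560 had 34.7 to 87.5 CPM in Ent, above the 7.43 to 33.7 of the warm libraries and the 2.71 to 10.1 of the cold ones, and fell by 3.94 from Ent to ET (SE 0.58, adjusted p = 0.00083, edgeR). G5881 had 12.1, 18.0 and 18.2 CPM in Ent, 63.3, 55.4 and 44.2 in ET, and 22.7 and 33.7 in LT, and rose by 1.75 from Ent to ET (SE 0.24, adjusted p = 0.00054, edgeR). Both calls were lost when any 1 of the IBA, Ent or ET libraries was left out (adjusted p of 0.001 to 0.0045, edgeR), that of G9560 also without SA replicate 3 (0.0012) or either LT library (0.0013), and both with the replicate number as a block (0.0014 for G9560 and 0.0018 for G5881). The log2 fold changes in these fits were -3.59 to -4.5 for G9560 and 1.58 to 1.88 for G5881. From ET to LT 0 members passed, against 0.00% of all units, with 45 members (14.6%) and 8.7% of all units at an unadjusted p under 0.05 in edgeR and 2 members past 0.001 in DESeq2.

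Members lower in the cold stood in Ent mostly near their warm level. On the log2 scale the Ent mean was nearer to the warm than to the cold mean in 56 of the 66 G units that fell (84.8%), 36 of 45 LOC units (80.0%) and 9 of 11 ENSSTOG units (81.8%), and in 440 of the 759 named units that fell (58.0%). The median step from warm to Ent was 0.40 in these G units and the step from Ent to cold 1.85. Of the units that rose, Ent was nearer to the cold mean in 7 of 15 G, 5 of 9 LOC, 5 of 7 ENSSTOG and 286 of 828 named units (34.5%).

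With rewarming, from LT to IBA, 37 G units rose (23.0%) and 6 fell, 24 LOC units rose (21.4%) and 6 fell, and 9 ENSSTOG units rose and 3 fell, by edgeR at the same threshold. Among named units 315 rose and 430 fell, and over all units 7.73% rose and 9.69% fell. The median log2 fold change was 1.26 for G, 0.65 for LOC and 0.47 for ENSSTOG units and 0.06 for named units. G8002 rose most (5.82, SE 0.54), and LOC110597766, with 72.0 and 56.1 CPM in LT and 10.7 CPM or less in IBA, fell most (-2.88, SE 0.39). This comparison shares the LT and IBA libraries with that of cold against warm. Without LT replicate 1, 10 G, 3 LOC and 2 ENSSTOG units rose, without LT replicate 3, 17, 6 and 3, and with season in the model and ET left out, 21, 7 and 4. Without 1 of the IBA libraries 10 to 15 LOC units rose, and without any 1 of the IBA or LT libraries 1 or 2 G and 2 or 3 LOC units fell. The fall of LOC110597766 did not pass without LT replicate 1 (log2 fold change -2.69, adjusted p = 0.0015, edgeR) or with season in the model (-2.66, adjusted p = 0.0071, edgeR).

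A named unit within 5 kb was more frequent for unannotated than for named units. The nearest unit that holds a gene name was within 5 kb for 60 G units (37.3%), 45 LOC units (40.2%) and 15 ENSSTOG units (41.7%), compared with 1267 named units (28.8%). Within 20 kb the shares were 47.8%, 56.2% and 55.6%, against 46.3% of named units, and the median gap was 22908 nt for G units and 24510 nt for named units. With single-name neighbours alone the median gap of G units (63156 nt) and ENSSTOG units (70470 nt) was larger than that of named units (47382 nt). Overlaps on the opposite strand made up 27 G, 26 LOC and 6 ENSSTOG units of those within 5 kb. Another 28 G units (17.4%), 19 LOC units (17.0%) and 6 ENSSTOG units (16.7%) were arranged head to head, that is on opposite strands with their starts facing, against 372 named units (8.46%). The median distance between head to head pairs within 5 kb was 1346 nt for G and 1304 nt for LOC units, measured between units from which the authors had removed the first 500 nt. Neighbours within 5 kb on the same strand were found for 220 of the 4396 named units (5.0%). They were rarer for G units (3, or 1.86%) and LOC units (1, or 0.893%) but more frequent for the few ENSSTOG units (4, or 11.1%). Units overlapping on the same strand had been merged by the authors.

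The nearest named units showed no such fall in their median. Their median log2 fold change between cold and warm was 0.03 for each of the 3 kinds. Member and neighbour had the same sign in 86 of 161 G pairs (53.4%), 62 of 112 LOC pairs (55.4%) and 19 of 36 ENSSTOG pairs (52.8%), and named units shared the sign of their own nearest named unit in 51.9%. Of the 66 G units that fell, 18 had a neighbour that fell and 12 a neighbour that rose, and of the 759 named units that fell, 153 and 139. Across the 161 G pairs Spearman's rho between member and neighbour was 0.21, against 0.14 for LOC, 0.12 for ENSSTOG and 0.07 for named units, as a description over units that share the same libraries. Of the 45 LOC units that fell, 8 had a neighbour that fell and 7 a neighbour that rose, and of the 11 ENSSTOG units 0 and 2.

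**Figure D5:**
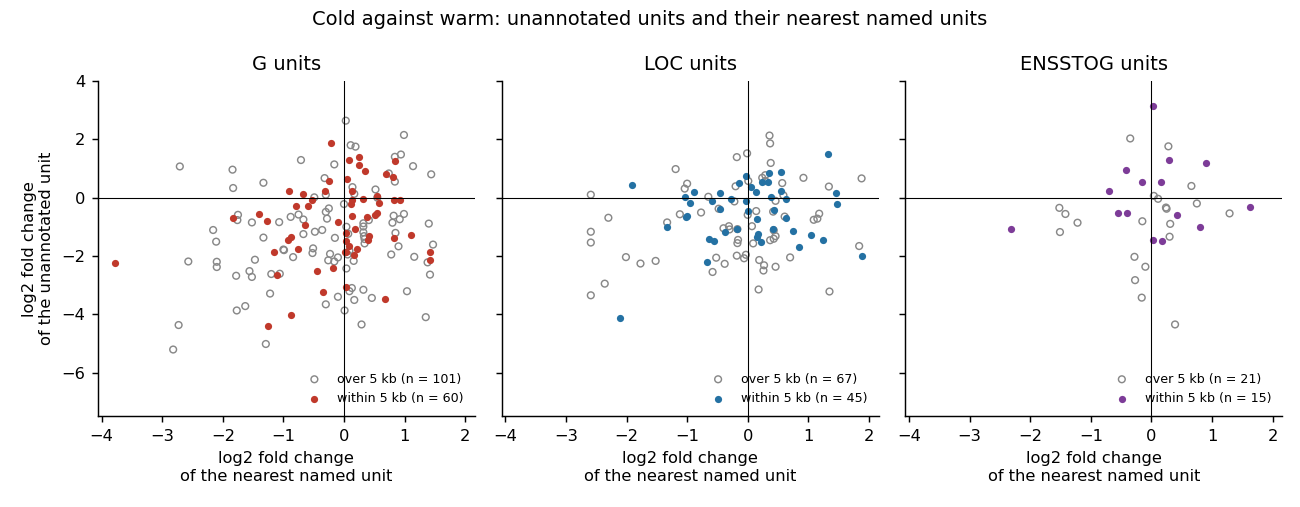
Log2 fold change between cold and warm of each unannotated unit (y axis) against that of its nearest named unit (x axis), in 1 panel per kind. Filled points have their neighbour within 5 kb and open points farther away. The points lie below 0 on the y axis more often than above it (123 of 161 G units), with the neighbours spread on both sides of 0.

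The members' change was also read by distance to the neighbour, without a test. Among G units the median log2 fold change was -1.09 with an overlap, -0.55 at 1 nt to 5 kb, -1.62 at 5 to 50 kb and -1.21 beyond 50 kb, where 27 of 63 units fell. Among LOC units it was -0.41, -0.39, -0.70 and -1.05. Among ENSSTOG units it was -0.53 with an overlap, 0.23 at 1 nt to 5 kb, where 4 of 9 units rose and 2 fell, -0.68 at 5 to 50 kb and -0.54 beyond. Named units had medians between -0.07 and -0.01 at the same distances. In the 28 head to head G pairs within 5 kb the median was -0.35 for the member and 0.18 for the named unit, and 10 of the pairs shared a sign. In the 6 ENSSTOG pairs of this kind the median was 0.31 for the member and 0.54 for the named unit. Leaving out the units that overlap a named unit gave medians of -1.19 for G, -0.67 for LOC and -0.46 for ENSSTOG units.

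Members were seldom close to each other. Another member lay within 50 kb of 30 of the 309 (9.71%), which formed 16 pairs, and in 14 of these both units had log2 fold changes of the same sign between cold and warm. In 13 pairs both were negative and in 7 both units fell. Of all members 72.5% had a negative value, but this is a share of units and not of pairs, so the 2 cannot be compared directly. LOC101958376 and LOC101965332 each belonged to more than 1 pair. The pairs included units named above, such as G8002 with ENSSTOG00000032862 at 23838 nt (-5.21 and -1.47), LOC106145069 with G35445 at 41071 nt (-4.12 and -2.38), and LOC101963557 with LOC101964325 at 22363 nt (-3.35 and -1.54).

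RefSeq's gene table for a later assembly of the species, used for names and types only, listed 82 of the 112 LOC units. It holds no Ensembl identifiers, so ENSSTOG units could not be looked up in it, and identifiers of the G kind matched 0 entries. Of the 82, 42 were protein-coding and 39 long noncoding RNA genes. The protein-coding LOC units had a median log2 fold change of -0.98 between cold and warm, with 21 lower and 3 higher, and the long noncoding ones a median of -0.46, with 12 lower and 5 higher. The 30 LOC units without an entry had a median of -0.51, with 12 lower and 0 higher, and the 3985 named units listed as protein-coding a median of -0.03. Of the LOC units, 4 now carry a gene symbol in that table, among them Atf6, a stress sensor of the endoplasmic reticulum, and Hspb8, a small heat shock protein.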

How the data were processed

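GRO-seq was performed by the authors with a nuclear run-on reaction on nuclei from frozen liver. Per the methods, the authors trimmed reads with cutadapt, aligned them to HiC_Itri_2 with BWA, extended gene ends with fstitch from the GRO-seq reads, merged overlapping genes, removed the first 500 nt of each gene and counted uniquely aligned reads with featureCounts. The deposited values are these raw counts per unit, without normalization. Tool versions and strand settings are not given in the sources used here. Units were thus bounded with reads of the same experiment.

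Here, counts were normalized by TMM and fitted with edgeR 4.0.16 under R 4.3.3 (glmQLFit, legacy = TRUE, 5 states, all 6324 units), with contrasts tested by glmQLFTest, Benjamini-Hochberg adjustment over all units and a threshold of 0.001. A minimum-count filter (filterByExpr) would have removed 0 units, so all 309 members were tested. Read density is CPM per kb, and log2 CPM used a prior count of 2. Standard errors are the log2 fold change divided by the root of F. The members' 3 kinds and the named-unit rule were chosen with earlier results of these data known. Named with values were, in each kind, the 3 largest rises and falls between cold and warm past the threshold without overlap of libraries, the largest rise and fall of each step, the 3 densest, the longest and the shortest units, the nearest named units of the first 2 sets, and 5 units known from earlier results (ENSSTOG00000034399, LOC101959938, G9560, G8002 and G25220). The other members named, in pairs near each other, and RefSeq symbols were chosen after their values were seen. Same-numbered libraries did not deviate together (correlations from -0.263 to 0.234 over 26 pairs, 6 above 0.1), so numbers were not taken as pairs. No pair of libraries agreed within sampling noise (lowest chi-square per degree of freedom 14.8). The fit was tested on simulated data with known changes. Summaries used Python 3.11.15, pandas 2.3.3 and matplotlib 3.10.9, and DESeq2 1.42.0 was run as an alternative.

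Alternatives were DESeq2, relative log expression size factors, scaling to uniquely mapped reads (from the study's sequencing metadata), adjusted deviances, at least 10 counts in every library, single-name units alone, an adjusted p of 0.05, the replicate number as a block, the season as a covariate without ET, each library left out in turn, and other definitions of the neighbour.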

Additional observations from a re-analysis of the deposited data

How the results depend on the processing

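The median log2 fold change between cold and warm was negative in each kind of unannotated unit under every alternative that fitted this contrast. For ENSSTOG units it depended on the count. It was -0.7 in the 22 units with a mean count under 200, but 0.01 in the 6 units of 200 to 400 and -0.06 in the 8 units of 400 or more. The fit with the season as a covariate left out ET, so it held no contrast of cold against warm and says nothing on it. With each library left out in turn, the median ran from -1.26 to -1.04 for G, -0.69 to -0.57 for LOC and -0.55 to -0.45 for ENSSTOG units. Scaling to uniquely mapped reads put the medians above these ranges, at -0.96 for G, -0.43 for LOC and -0.30 for ENSSTOG units. It also moved the median of all units, from -0.04 to 0.18. That scaling turned the median of named units from -0.04 to 0.19 between cold and warm and from 0.06 to -0.13 between LT and IBA. The LOC share of uniquely mapped reads in the cold was 78.9% of that in the warm. Counts of calls varied more.

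With DESeq2, the 5 states together gave 124 G and 72 LOC units. Ent to ET then gave 4 G, 1 LOC and 2 ENSSTOG units higher and 53, 32 and 4 lower. LT to IBA gave 67 G and 38 LOC units higher and 11 G and 6 ENSSTOG units lower. Cold against warm gave 14 LOC units higher, SA to IBA 23 members, IBA to Ent 20 and ET to LT 2. At an adjusted p of 0.05 the numbers were 141 G, 85 LOC and 25 ENSSTOG units for the 5 states, 9, 4 and 6 higher and 69, 42 and 11 lower from Ent to ET, 89, 51 and 15 higher and 16, 13 and 9 lower from LT to IBA, 24 G and 21 LOC units higher and 107 G and 19 ENSSTOG units lower in the cold, 33 members between SA and IBA, 51 between IBA and Ent and 1 between ET and LT.

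With the season as a covariate and ET left out, 12 G, 5 LOC and 3 ENSSTOG units differed among states, 21, 7 and 4 were higher and 0, 0 and 1 lower from LT to IBA, and 0 members passed from IBA to Ent. The replicate number does not pair the samples. As a block it gave 0 G units higher and 11 lower from Ent to ET, 3 G units lower from LT to IBA and 0 members from IBA to Ent, and it moved no other count of calls by over 1.5 times.

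Leaving out each library in turn gave 41 to 71 G, 28 to 45 LOC and 10 to 15 ENSSTOG units for the 5 states, with the lowest counts of G and LOC units without LT replicate 1 and of ENSSTOG units without IBA replicate 1. From Ent to ET it gave 0 to 2 G and 0 to 1 ENSSTOG units higher and 0 to 23 G, 0 to 6 LOC and 0 to 3 ENSSTOG units lower. From LT to IBA it gave 10 to 46 G, 3 to 25 LOC and 2 to 10 ENSSTOG units higher and 1 to 9 G and 2 to 7 LOC units lower. Without LT replicate 1 or LT replicate 3, 43 G units were lower in the cold (43 to 66 over all 14 libraries). From SA to IBA 1 to 2 members passed, with 2 when an LT library was left out, and from IBA to Ent 0 to 1. Where an LT library was left out, the lone one was assumed to vary like the other groups. The cause of these shifts was not tested, apart from the smaller groups.

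Named units within 5 kb were found for 24.8% of G, 29.5% of LOC and 21.5% of named units when merged neighbours were not counted, and within 20 kb for 47.8%, 56.2% and 46.3%. On the same strand the shares within 5 kb were 1.86% of G, 0.893% of LOC, 11.1% of ENSSTOG and 5.0% of named units. Leaving out overlapping units was chosen after seeing the data. The lowest mean count of a unit, 77.4, limits what can be said of weaker units.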

Other observations

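Some of the densest and longest members followed patterns other than cold against warm. G40832, the longest G unit, had 163, 89.7 and 125 CPM in SA and 112, 136 and 106 in Ent, but 26.7, 52.7 and 25.1 in IBA, below every SA and Ent library (SA to IBA, log2 fold change -1.86, SE 0.37, adjusted p = 0.013 in edgeR's quasi-likelihood test, above the threshold of 0.001). LOC110599192, the longest LOC unit, had 122, 44.6 and 59.1 CPM in SA and 10.3 to 29.0 CPM in the other 11 libraries (5 states together, adjusted p = 0.00016, edgeR). G37685, of 1294 nt, had 44.1 and 40.9 CPM in LT and 12.0 to 35.4 CPM in the other libraries (5 states together, adjusted p = 0.055, edgeR). ENSSTOG00000030030, the longest ENSSTOG unit, had 206, 205 and 197 CPM in IBA and 104 to 174 CPM elsewhere.

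By strand, 67 G units were listed on the plus and 94 on the minus strand, 47 and 65 LOC units, 11 and 25 ENSSTOG units, 2210 and 2186 named units, and 477 and 1142 merged units. By chromosome, members made up 13.5% of the single-name units of chromosome 13 and 4.44% of those of chromosome 6.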
